A study of Danio rerio with 2 samples.

Results

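The vascular genes examined here are 10 listed genes of endothelial and endocardial cells, of which 7 had a probe set and 3 (cdh5, egfl7 and nfatc1) had none under their name in the array's annotation. They were matched by gene symbol, and fli1a was matched through its current symbol fli1. The 7 genes were measured by 8 of the 15502 non-control probe sets on the array, since fli1 had a pair of them. They comprise both aquaporin genes of the list (aqp8a.1 and aqp1a.1), 4 receptor tyrosine kinase genes (kdrl, flt4, tek and tie1) and the transcription factor gene fli1.

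Adult zebrafish had about 20% of the ventricle removed at its apex and were then exposed to water or to atropine, a blocker of muscarinic acetylcholine receptors. Whole hearts were collected 24 hours later, and total RNA from 15 pooled hearts per condition was measured on 1 Affymetrix 3' expression array. Both groups carried the amputation, and they differed by label in the exposure only. The labels used here give no strain, sex, age in months or atropine dose. With 1 array per group no test was possible, so each difference below describes these 2 pools and has no replicate check and no p-value.

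Endothelial cells line all blood vessels, and the endocardium is the specialised endothelium that lines the heart chambers and forms the valves. Both use receptors for vascular endothelial growth factor (VEGF) and the Tie receptors at their surface, adhere through VE-cadherin, and depend on ETS-family transcription factors for their identity. Aquaporins are membrane channels that let water pass along osmotic gradients. In zebrafish aqp1a.1 and aqp8a.1 are known from vascular endothelium, and aqp1a.1 also from red blood cells. In the regenerating zebrafish heart the endocardium and the coronary vessels respond early to injury and new vessels grow into the wound.

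Of the 7 genes measured, aqp8a.1 was the one that stood well apart between the arrays, and it was higher in the atropine-exposed pool. The other aquaporin, aqp1a.1, was higher by a smaller amount and tek was slightly lower. The genes kdrl, fli1 and tie1 had nearly the same value on both arrays, tie1 at a low level. The flt4 probe set lay too low on both arrays to be compared. Values are the deposited expression values on a log2 scale, and a difference is always atropine minus water. Comparisons cover probe sets that reached 4.05, the median of all non-control values, on at least 1 array. The brightest probe set of each of 6 of the 7 genes did so on both arrays. Levels of different probe sets are not set against each other, because probe sets respond differently to the same amount of RNA.

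**Figure D1:**
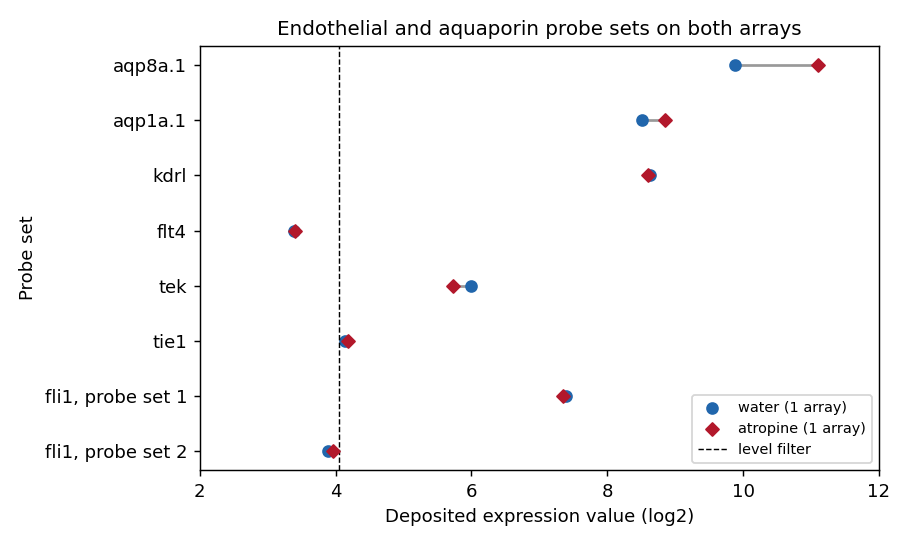
Deposited log2 expression values (x axis) of the 8 probe sets of the listed vascular genes (y axis) on the water array (blue circles) and the atropine array (red diamonds), with the level filter as a dashed line. The 2 symbols of aqp8a.1 are 1.22 apart, those of aqp1a.1 0.33, and those of kdrl, tie1, flt4 and both fli1 probe sets nearly coincide.

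The gene aqp8a.1 encodes a channel of the aquaporin-8 type, which in mammals passes water and also ammonia and hydrogen peroxide. Its probe set stood at 9.88 in water and 11.10 in atropine. The difference of 1.22 corresponds to a level 2.33-fold higher in atropine, or 940.4 against 2195 on the linear scale. It was the 16th largest difference toward atropine among 7961 compared probe sets and the 11th among 5294 compared genes. Of the 6 listed genes compared, a 1.5-fold difference toward atropine was reached by 1 and one toward water by none, against 1.87% and 2.12% of all compared genes. The share of all compared genes that were at least 2-fold higher was 0.397%, and aqp8a.1 was the only listed gene there. The listed genes were chosen with earlier results of these data known, so these ranks and shares are a description only.

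Few compared probe sets with a high mean value differed as much as that of aqp8a.1. Of 287 compared probe sets with a mean value of 10 or more, a limit chosen after the values were seen, 5 were at least 1.5-fold higher in atropine and 1 at least 1.5-fold lower. At least 2-fold higher were 3 of them, for aqp8a.1, for the adult beta-globin gene hbba2 and for mibp. The aqp8a.1 probe set stood at 9.88 in water, under the limit, and its mean passed it through the higher atropine value. Its place in this count therefore gives its difference no support. The differences of these 287 had a standard deviation of 0.21, against 0.28 over all compared probe sets.

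**Figure D2:**
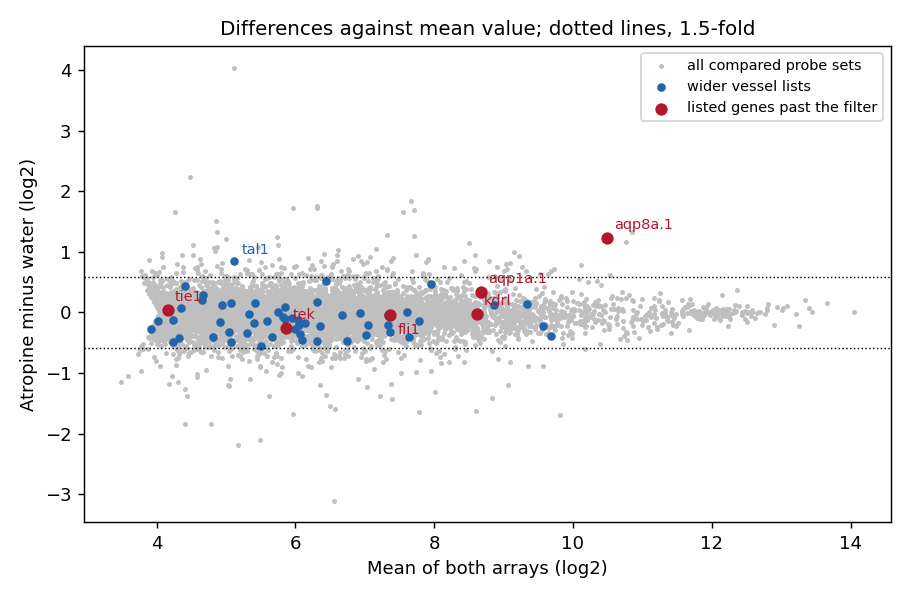
Difference between the arrays (y axis, log2 atropine minus water) against the mean of both arrays (x axis, log2) for the compared probe sets (grey), the wider vessel lists (blue) and the 6 listed genes past the filter (red), with dotted lines at 1.5-fold. The point of aqp8a.1 lies at 1.22, above nearly all grey points at its level, and tal1 at 0.85 is the one blue point above the upper line.

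The second aquaporin gene, aqp1a.1, encodes a channel of the aquaporin-1 type, the main water channel of red blood cells and of many endothelia in mammals. Its probe set stood at 8.51 in water and 8.84 in atropine. It was 1.26-fold higher in atropine, a difference of 0.33 that 16.1% of all compared probe sets equalled or exceeded in either direction. As deposited, both aquaporins lay in the same direction and aqp1a.1 stayed under 1.5-fold. Among 648 genes with several compared probe sets, the differences of a gene's 2 brightest scattered with a standard deviation of 0.15. That is scatter between probe sets on the same RNA and no spread between pools.

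Of 20 aquaporin names looked up, 5 genes had a probe set, and aqp8a.1 and aqp1a.1 alone passed the level filter. The other 3 were aqp3a, whose human counterpart passes water and glycerol, aqp9b and aqp12, with values between 2.30 and 3.76 and differences from -0.23 to -0.03. They lay too low to show a difference. Those values are named here after they were seen. Among the names with no probe set were aqp8a.2 and aqp1a.2, the closest relatives of the measured pair. Whether the probes of aqp8a.1 and aqp1a.1 also take up those relatives was not tested.

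Of the VEGF receptor genes, 1 could be compared and it differed little. The gene kdrl encodes the main receptor through which VEGF-A drives endothelial growth, and it is the usual marker of zebrafish endothelium and endocardium. Its probe set stood at 8.63 in water and 8.60 in atropine, a difference of -0.03, and 88.0% of all compared probe sets differed by at least as much. The gene flt4 encodes the receptor for VEGF-C, which guides lymphatic and venous vessels. Its probe set stood at 3.39 in water and 3.40 in atropine, below the filter on both arrays, so a change in flt4 was not detectable at this sensitivity.

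Of the Tie receptors, tek encodes Tie2, the receptor for the angiopoietins that steady mature vessels, and tie1 encodes its partner receptor. The tek probe set stood at 5.99 in water and 5.73 in atropine, and the level was 1.20-fold lower in atropine. That difference of -0.26 was the lowest of the listed genes, yet 26.3% of all compared probe sets lay at least as far from 0. The tie1 probe set stood at 4.15 in water and 4.18 in atropine, a difference of 0.03 just above the filter. Neither Tie receptor gene reached a 1.5-fold difference.

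The gene fli1, listed as fli1a, encodes an ETS transcription factor that is among the earliest markers of the endothelial lineage and is also made in some blood cells. Its higher probe set stood at 7.39 in water and 7.35 in atropine, a difference of -0.03. Its second probe set stood at 3.89 and 3.96, below the filter on both arrays. The 4 endothelial genes compared other than the aquaporins had a median difference of -0.03 and ran from -0.26 to 0.03, near the median of -0.01 over all compared genes. Over all 6 listed genes compared the median was 0.00.

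Of the endothelial markers, kdrl, fli1 and tek lay more than 1.5 log2 units above the filter on both arrays and tie1 just above it, while flt4 lay below it. No measured gene of the list marks the endocardium apart from other endothelium, because nfatc1, the valve endocardium factor, had no named probe set and kdrl is made in both. The junction gene cdh5, encoding VE-cadherin, and egfl7, encoding a secreted vessel factor, were likewise not measured. In whole hearts, fewer cells of a type and less RNA per cell cannot be told apart.

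A wider set of 9 lists of vessel, endocardial and aquaporin genes was read for context. Without the listed genes 54 of its genes passed the filter, of which 1 was higher in atropine by 1.5-fold or more and none was lower by that much. Of all compared genes 1.87% were that much higher and 2.12% that much lower, so counts this small do not set these lists apart. The median difference of the 54 was -0.14 against -0.01 over all compared genes. Of the 54, 38 lay below 0, or 70.4%, against 52.0% of all compared genes. The 13 probe sets of polyadenylated spike-in transcripts past the filter differed by -0.86 to -0.13, with a median of -0.48. With the arrays scaled to that median, the median of all compared probe sets would move to 0.47. That of the 54 genes would move to 0.33, so the sign of these medians depends on the scaling. The wide range of the spike-ins leaves the size of this shift uncertain. The filter was passed on 1 array only by 3 of the 54 genes, and 3 also stand in a list of markers for other cell types.

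**Figure D3:**
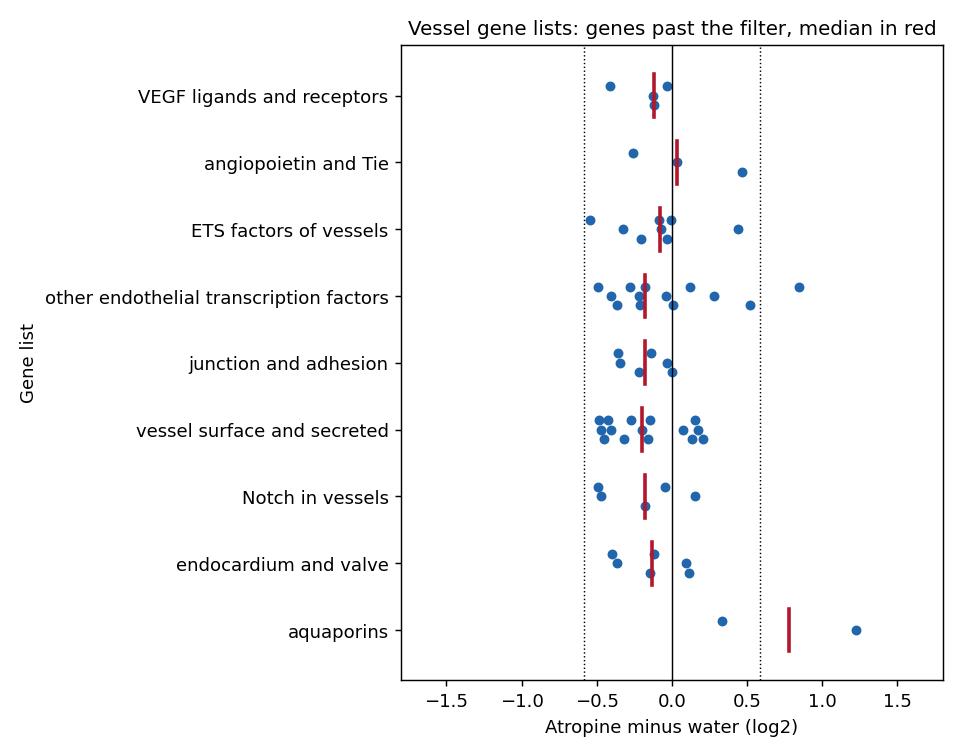
Difference between the arrays (x axis, log2 atropine minus water) of each gene past the filter in the 9 vessel lists (y axis), 1 point per gene, with list medians as red bars and dotted lines at 1.5-fold. The points of the 8 lists other than the aquaporins lie mostly between -0.55 and 0.52, with tal1 at 0.85 beyond the upper line.

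The VEGF list held 4 compared genes with a median of -0.12 and none 1.5-fold apart. The ligand gene vegfaa, whose product drives vessel sprouting, stood at 5.86 in water and 5.45 in atropine (-0.41). The ligand gene vegfc stood at 5.92 and 5.80 (-0.12), and the co-receptor gene nrp1a at 6.10 and 5.98 (-0.12). All 4 genes, kdrl included, lay on the lower side in atropine as deposited, as did 52.0% of all compared genes. The differences of kdrl, vegfc and nrp1a were smaller than 0.15, the standard deviation found between probe sets of 1 gene. That value describes scatter between probe sets on the same RNA and is no spread between pools. The angiopoietin and Tie list held 3, with a median of 0.03. Beside tek and tie1 it held ptprb, encoding a phosphatase that restrains Tie2 and VE-cadherin signalling in mammals, which stood at 7.72 in water and 8.19 in atropine (0.46). The angiopoietin genes angpt1 and angpt2b lay below the filter on both arrays.

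Of 8 ETS factor genes compared, 7 lay below 0 and none was 1.5-fold apart, with a median of -0.08. The gene ets1, encoding an ETS factor of endothelial and blood cells, was the lowest of the whole vessel set at 5.78 in water and 5.24 in atropine (-0.55), with -0.22 on its second probe set. The endothelial factor gene erg stood at 7.53 and 7.21 (-0.32). The fli1 relative fli1rs, formerly fli1b, stood at 5.86 and 5.79 (-0.07), close to fli1 itself. The one ETS gene above 0 was ets2, at 4.19 and 4.63 (0.44).

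Among 13 other transcription factor genes compared, the median was -0.18 and 1 was at least 1.5-fold higher. That gene was tal1, which acts in both endothelial and blood progenitors, at 4.69 in water and 5.54 in atropine (0.85). Its partner in blood and vessel progenitors, lmo2, followed at 6.18 and 6.70 (0.52), while gata2a of the same list stood at 6.16 and 5.95 (-0.21). The flow-responsive gene klf2a stood at 7.20 and 6.83 (-0.37) and its relative klf2b at 7.61 on both arrays (0.00). The gene klf6a, encoding a related zinc-finger factor, stood at 7.83 and 7.43 (-0.40). The venous factor gene nr2f2 stood at 6.14 and 5.86 (-0.28), and the lymphatic factor gene prox1a at 4.53 and 4.81 (0.28).

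Surface and secreted vessel genes had a median of -0.20 over 15 compared genes, with 10 below 0 and none 1.5-fold apart. The tip-cell peptide gene apln stood at 6.55 in water and 6.07 in atropine (-0.47), and the gene of its receptor, aplnra, at 5.21 and 4.89 (-0.32). The BMP receptor gene acvrl1, known from arterial endothelium, stood at 5.31 and 4.83 (-0.49), and the chemokine gene cxcl12b at 6.33 and 5.87 (-0.45). Of the 5 genes above 0, the caveolar coat gene cav1 stood at 9.27 and 9.40 (0.13). The others were plvapb (0.20), cav2 (0.17), edn1 (0.15) and ephb4a (0.07). The coagulation inhibitor gene tfpia stood at 7.15 and 6.95 (-0.20). Junction and adhesion genes had a median of -0.18 over 6 genes, with cdh2, the cadherin of heart muscle and of contacts between endothelial and mural cells, at 9.67 and 9.46 (-0.22) and the plakoglobin gene jupa at 7.84 and 7.71 (-0.14).

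Notch genes had a median of -0.18 over 5 compared genes, and the hairy-related repressor genes her6 and her9 stood at 6.98 and 6.51 (-0.47) and at 7.36 and 7.32 (-0.04). The receptor gene notch1b, a marker of activated endocardium, stood at 3.52 and 3.59, below the filter on both arrays. The endocardium and valve list had a median of -0.13 over 6 genes. Its gene aldh1a2, encoding the retinoic acid-making enzyme of injured endocardium and epicardium, differed by -0.40, and gata5, an endocardial and myocardial factor gene, stood at 8.80 and 8.92 (0.12). None of the 6 was 1.5-fold apart.

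Most red blood cell markers were higher in atropine, as both aquaporins were. Of 18 red blood cell marker names 13 had a probe set and 11 passed the filter, with a median of 0.63. Of these 11, 6 were higher by 1.5-fold or more and none lower by that much, against 1.87% and 2.12% of all compared genes. The markers sptb and urod differed by -0.01 each. The summed linear level of the 11 markers was 13228 in water and 17468 in atropine, most of it from hbaa1 at 13.25 and 13.45. The beta-globin gene hbba2 differed by 1.33, the alpha-globin gene hbaa1 by 0.20, the haem synthesis gene alas2 by 0.30 and the band 3 anion exchanger gene slc4a1a by 0.51. Of these 11 markers, 1 lay at least as far above 0 as aqp8a.1 and 7 at least as far as aqp1a.1. Set against the red blood cell median, aqp8a.1 was higher by 0.59 and aqp1a.1 stood at -0.29. The part of red blood cell RNA in the values of aqp8a.1, aqp1a.1, tal1 and lmo2 was not tested.

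**Figure D4:**
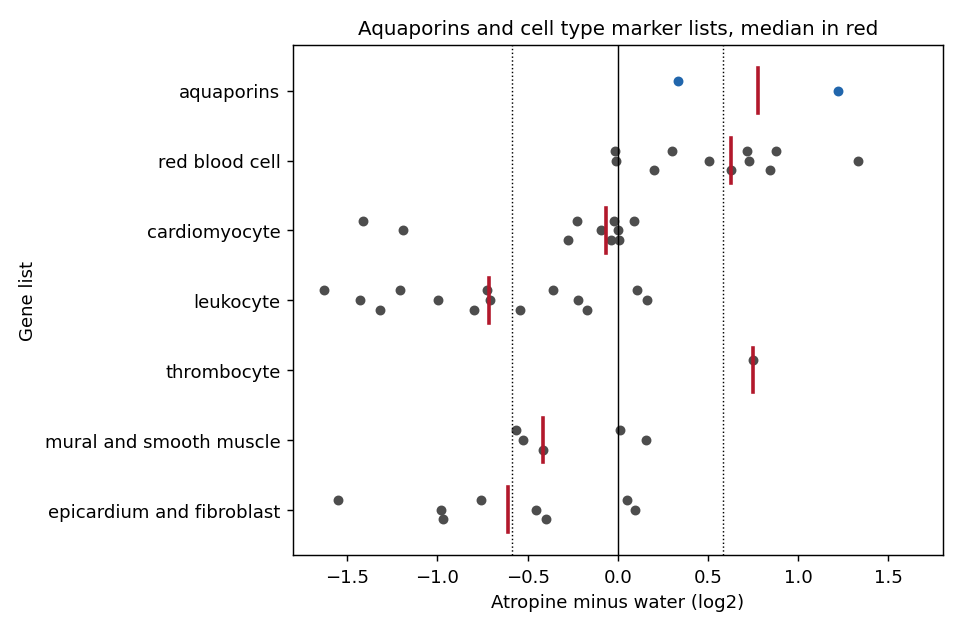
Difference between the arrays (x axis, log2 atropine minus water) of the compared aquaporin genes (blue) and of 6 lists of markers for other cell types (grey), 1 point per gene, with list medians as red bars and dotted lines at 1.5-fold. The red blood cell median lies at 0.63 and the leukocyte median at -0.71, on opposite sides of 0.

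The marker lists of leukocytes, of epicardium and fibroblasts and of mural cells had medians well below 0 as deposited. The wider vessel genes, at -0.14, and the cardiomyocyte markers, at -0.07, lay nearer the median of -0.01 over all compared genes. Of 16 leukocyte names 14 passed the filter, 8 of them at least 1.5-fold lower, against 2.12% of all compared genes. The median of the 14 was -0.71, with summed linear levels of 5117 in water and 3330 in atropine. The granule genes mpx and lyz differed by -0.995 and -0.80, with -1.37 on a second compared probe set of mpx. The genes lcp1 and coro1a differed by only -0.22 and -0.17, and srgn and csf1ra lay above 0, at 0.16 and 0.10. The metalloproteinase genes mmp9 and mmp13a differed by -1.43 and -1.20. Epicardial and fibroblast markers had a median of -0.61 over 8 genes of 14 names, of which 2 lay above 0, krt18a.1 (0.05) and postnb (0.10). Of the 8, 4 were at least 1.5-fold lower, against 2.12% of all compared genes. They were the matrix genes col1a1a (-0.76), col1a2 (-0.98) and fn1a (-1.55) and the keratin gene krt4 (-0.97). The summed linear level of the 8 was 3356 in water and 2628 in atropine. The defining marker tbx18 and the further marker wt1a lay below the filter. Mural and smooth muscle markers had a median of -0.41 over 5 genes of 13 names, none of them 1.5-fold apart. The genes acta2 and tagln differed by -0.41 and -0.52, and 2 of the 5 lay above 0, notch3 at 0.15 and desma at 0.01. The summed levels of 2368 and 2271 came mostly from desma, which stood at 10.92 and 10.93, so they say little about the other markers. The smooth muscle kinase gene mylka lay below the filter.

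Cardiomyocyte markers had a median of -0.07 over 10 genes of 17 names. Of these 10 genes, 2 were at least 1.5-fold lower, against 2.12% of all compared genes. The summed levels were 40930 in water and 38085 in atropine. The muscle genes myl7, tnnt2a and cmlc1 differed by -0.02, 0.00 and -0.09, while the 2 lower genes, myh7 and tnnc1a, which encodes cardiac troponin C, differed by -1.19 and -1.41. Of 9 thrombocyte names 1 passed the filter, nfe2 at 0.75, which red blood cell precursors also use, and the genes itga2b, gp1bb and thbs1b lay below it. The part of these cell types in the values of the vessel genes was not tested.

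The neighbours of the listed genes on the chromosome were read from the RefSeq gene order of the assembly GRCz12tu, up to 3 protein-coding genes to each side, a step added after the values were seen. The gene aqp8a.1 lies next to its relative aqp8a.2, with the embryonic globin genes hbae5 and hbbe2 beyond it and lcmt1, encoding a methyltransferase, on the other side. Of these, hbbe2 stood at 4.29 in water and 4.56 in atropine (0.26), close above the filter and too low to say much about its difference. The gene lcmt1 stood at 5.40 and 5.55 (0.15), a smaller difference than that of aqp8a.1, while aqp8a.2 and hbae5 had no named probe set. The gene aqp1a.1 lies next to aqp1a.2, and its compared neighbours thoc1 and usp14 differed by 0.01 and 0.03, while myl13 lay below the filter. The gene fli1 lies next to ets1, and these neighbours differed by -0.03 and -0.55 on their brightest probe sets. The gene tie1 lies next to mpl, the thrombopoietin receptor gene, for which no probe set was named.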

How the data were processed

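The authors deposited a table of log2 expression values for 2 arrays, and for its summarisation and normalization the method is not given in the sources used here. Labelling followed an Affymetrix 3' IVT protocol, per the labels. That the scale is log2 was read from the values, which run from 2.02 to 14.05. The sorted arrays differed by at most 0.15, so a global shift in RNA cannot be seen. Detection calls were not used here, and precision is limited by having 1 array per group.

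Gene names came from the platform annotation, updated by Entrez identifier through RefSeq (99.2% found), with 10795 of the 15502 non-control probe sets under a single symbol, 135 under several and 4572 under none. Of 243 list names 140 matched by symbol, 3 by synonym and 100 no named probe set. Where a gene had several compared probe sets, the brightest stood for it. Differences were taken as deposited.

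The members and lists were chosen with earlier results of these data known. The genes named were all members, vessel list genes at least 1.5-fold apart, the 2 brightest of each vessel list and the first 4 markers with a probe set. Others (among them vegfaa, vegfc, ptprb, ets1, ets2, fli1rs, lmo2, gata2a, klf2a, nr2f2, prox1a, apln, aplnra, acvrl1, cxcl12b, plvapb, cav2, edn1, ephb4a, angpt1, angpt2b, notch1b, notch3, sptb, urod, mmp9, mmp13a, srgn, csf1ra, krt18a.1, postnb, fn1a, krt4 and tnnc1a) were named after their values were seen.

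Alternatives were median centring, quantile normalization, loess on mean level (span 0.4), an offset of 16 on the linear scale, no filter or one at the upper quartile (5.98), the mean of a gene's probe sets, only probe sets specific to a single transcript by their suffix, and a 2-fold threshold. Scalings to spike-ins, cardiomyocyte and red blood cell markers were added after seeing the data, as was a list without tal1, lmo2 and gata2a. The steps were run on simulated data with built-in changes, which checks the calculation and says nothing about the differences between these pools. The software was Python 3.11.15 with pandas 2.3.3, numpy 2.4.6 and statsmodels 0.14.6.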

Additional observations from a re-analysis of the deposited data

How the results depend on the processing

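Across the normalizations and the offset, aqp8a.1 differed by 1.21 to 1.25, aqp1a.1 by 0.32 to 0.37, tek by -0.26 to -0.20, kdrl by -0.04 to -0.00 and the brighter fli1 probe set by -0.04 to 0.00. The counts of listed genes 1.5-fold apart kept their values under each normalization, filter and probe set choice and at 2-fold, and their median ran from -0.03 to 0.02. The median of the wider vessel genes ran from -0.20 to -0.09 under these choices and without tal1, lmo2 and gata2a. The number of wider vessel genes at least 1.5-fold higher went from 1 to 0 with the offset, with the filter at the upper quartile, at 2-fold and without tal1, lmo2 and gata2a. With no level filter 1 of the wider vessel genes was at least 1.5-fold lower, hapln1a on a probe set below the filter. Scaling to the polyadenylated spike-ins put the listed genes' median at 0.48 with 2 of them at least 1.5-fold higher, aqp8a.1 at 1.70 and aqp1a.1 at 0.81. The wider vessel median then stood at 0.33 with 12 higher. Scaling to the red blood cell markers, which puts the median of all compared probe sets at -0.64, gave -0.63 for the listed genes with 4 at least 1.5-fold lower, and -0.77 for the wider vessel genes with 0 higher and 40 lower. Under that scaling aqp8a.1 stood at 0.59 and aqp1a.1 at -0.29. No paired analysis was possible because each group holds 1 array. Low signal limits flt4, the second fli1 probe set and tie1.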

Other observations

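Some vessel genes were measured by several probe sets that did not give the same value. The 6 probe sets of hapln1a, encoding a matrix link protein of the endocardial cushions, all lay below the filter and differed by -0.67 to 0.16. Those of cxcl12a, encoding a chemokine, both passed the filter on at least 1 array and differed by -0.16 and 0.22. The 3 compared probe sets of cav1 ran from -0.15 to 0.13. Both probe sets of cdh2 passed the filter and differed alike, by -0.22 and -0.20. Of the s1pr1 probe sets, for a sphingosine phosphate receptor of endothelium, the compared one differed by -0.41, and the other, at -0.34, lay below the filter on both arrays.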
